A study of Arabidopsis thaliana with 8 samples.

Results

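PIF3-binding sites that lie close to another PIF3-binding site are described here, in the genome of Arabidopsis seedlings grown in the dark. A site was a position where the summits of peaks from at least 2 of 4 peak lists fell less than 100 bp from each other, and it was placed at the mean of those summits. A site counted as clustered if another site lay at most 10000 bp away on the same chromosome. By this rule 341 of 1064 sites were clustered, which is 32.0% of all sites, and the other 723 are called isolated. The rule used the peak calls of the 4 lists, so the number of lists, the fold and the tag count of a site are given as description, with no test. The clustered sites formed 150 clusters, of which 118 held 2 sites, 25 held 3, 5 held 4 and 2 held 5.

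The study sequenced DNA that was immunoprecipitated with an antibody to the MYC epitope from 8 libraries, 4 of P3M and 4 of WT. P3M seedlings carry 35S:PIF3-5xMyc, in which the constitutive 35S promoter drives PIF3 with MYC repeats, and they lack their own PIF3 through the pif3-3 null allele, while WT seedlings lack the epitope. Seedlings of both genotypes were 2 d old and were taken whole, after 3 h of white light and a far-red pulse of 15 min on the seeds and growth in darkness at 21 °C. Each library pooled 4 immunoprecipitates of 1 biological replicate, and each list sets P3M against WT of the same replicate number. The promoter drives PIF3 in most tissues, and binding in single cell types cannot be told apart in whole seedlings. The labels give 4 g of tissue, and the methods a smaller amount.

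PIF3 is a basic helix-loop-helix transcription factor that accumulates in darkness, promotes skotomorphogenesis, the growth form of seedlings in the dark, and is degraded after light activates phytochrome. It binds the G-box, CACGTG, and the PBE-box, CACATG. Genes that respond to PIF proteins include regulators of shade avoidance and of the hormones auxin, brassinosteroid and gibberellin, which drive elongation of the hypocotyl.

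The clearest group of sites lies upstream of ATHB-2 (HB-2, AT4G16780), an HD-Zip class II transcription factor gene that responds to shade. All 5 of its sites are intergenic, and they are shown first because 4 of them were called in all 4 lists. Each line gives 81 bases around the mean summit on the forward strand of TAIR10.1, with G-boxes and PBE-boxes in either orientation in capitals. Motifs counted elsewhere in the text were searched up to 100 bp to either side of the mean summit, so some lie outside these 81 bases.
ATHB-2 site 1 (chr4:9440754-9440834): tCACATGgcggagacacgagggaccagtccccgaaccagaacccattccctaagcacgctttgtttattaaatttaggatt
ATHB-2 site 2 (chr4:9442042-9442122): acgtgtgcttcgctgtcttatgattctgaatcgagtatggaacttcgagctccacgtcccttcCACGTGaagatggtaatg
ATHB-2 site 3 (chr4:9443400-9443480): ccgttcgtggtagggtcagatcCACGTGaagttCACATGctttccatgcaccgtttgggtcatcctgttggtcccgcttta
ATHB-2 site 4 (chr4:9444214-9444294): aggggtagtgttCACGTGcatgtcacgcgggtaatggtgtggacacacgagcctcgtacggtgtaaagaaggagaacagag
ATHB-2 site 5 (chr4:9446019-9446099): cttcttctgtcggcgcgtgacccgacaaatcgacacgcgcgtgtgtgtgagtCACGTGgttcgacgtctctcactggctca

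Sites of other HD-Zip class II genes are shown next, since this gene family recurs among the clusters. The nearest transcription start site (TSS) is that of SHOT1 for the line named for HAT3, and that of AT4G17440 for the HAT1 line 7827 bp upstream.
HAT1 upstream site, 7827 bp from the TSS (chr4:9731651-9731731): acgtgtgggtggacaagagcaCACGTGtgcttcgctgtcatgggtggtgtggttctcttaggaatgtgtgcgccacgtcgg
HAT1 upstream site, 1320 bp from the TSS (chr4:9738158-9738238): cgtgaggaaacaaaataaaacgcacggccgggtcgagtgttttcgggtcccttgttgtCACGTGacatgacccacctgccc
HAT2 upstream site, 2953 bp from the TSS (chr5:19220920-19221000): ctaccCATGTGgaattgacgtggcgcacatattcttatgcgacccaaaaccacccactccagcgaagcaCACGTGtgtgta
HAT3 upstream site, 5361 bp from the TSS (chr3:22327982-22328062): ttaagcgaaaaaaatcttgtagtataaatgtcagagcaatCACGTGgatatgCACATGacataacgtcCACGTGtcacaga
ATHB4 upstream site, 1845 bp from the TSS (chr2:18521536-18521616): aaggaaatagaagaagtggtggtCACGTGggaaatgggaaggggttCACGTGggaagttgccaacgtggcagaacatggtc
HAT22 site beyond the gene (chr4:17770690-17770770): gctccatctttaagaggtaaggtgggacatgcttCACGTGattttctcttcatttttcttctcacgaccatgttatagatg

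Clusters of other genes are represented by sites with several motifs, by the site of BRI1, and by the sites of PIF6, whose summits the lists placed differently. The first GID1B line holds a PBE-box in each orientation that overlap, so its leading capitals run over 8 bases.
AT5G02580 upstream site (chr5:579297-579377): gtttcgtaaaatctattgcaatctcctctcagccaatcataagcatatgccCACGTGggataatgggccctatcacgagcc
AT5G02580 downstream site (chr5:581239-581319): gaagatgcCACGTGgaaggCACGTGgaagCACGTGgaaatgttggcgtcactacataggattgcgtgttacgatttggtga
BRG3 upstream site (chr3:4124389-4124469): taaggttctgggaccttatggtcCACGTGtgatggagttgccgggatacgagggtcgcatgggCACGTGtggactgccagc
BIM1 upstream site (chr5:2612928-2613008): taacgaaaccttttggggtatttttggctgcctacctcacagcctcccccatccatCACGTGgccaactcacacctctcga
DWF4 upstream site, 3703 bp from the TSS (chr3:18821068-18821148): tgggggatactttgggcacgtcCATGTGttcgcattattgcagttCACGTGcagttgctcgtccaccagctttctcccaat
DWF4 upstream site, 4604 bp from the TSS (chr3:18821969-18822049): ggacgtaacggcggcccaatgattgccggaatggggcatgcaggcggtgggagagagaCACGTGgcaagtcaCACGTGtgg
BRI1 upstream site (chr4:18321530-18321610): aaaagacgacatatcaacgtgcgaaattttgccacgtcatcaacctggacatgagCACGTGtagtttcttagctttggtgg
GID1B upstream site, 904 bp from the TSS (chr3:23288299-23288379): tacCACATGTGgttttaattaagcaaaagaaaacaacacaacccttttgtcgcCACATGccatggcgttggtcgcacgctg
PIN3 upstream site, 3185 bp from the TSS (chr1:26739715-26739795): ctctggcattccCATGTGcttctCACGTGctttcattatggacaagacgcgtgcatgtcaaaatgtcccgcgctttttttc
PIF6 upstream site, 484 bp from the TSS (chr3:22991153-22991233): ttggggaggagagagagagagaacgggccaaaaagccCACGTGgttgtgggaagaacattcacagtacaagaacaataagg
PIF6 upstream site, 643 bp from the TSS (chr3:22991312-22991392): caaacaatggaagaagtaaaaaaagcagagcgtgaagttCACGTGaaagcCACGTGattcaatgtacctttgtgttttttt

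The 4 lists differed in size, with 696, 2517, 526 and 3089 peaks in replicates 1 to 4, so replicates 2 and 4 gave most of the sites. Of the 341 clustered sites, 153, 269, 155 and 319 were called in replicates 1 to 4. The false discovery rate that MACS gave was 100% for 142, 0, 155 and 113 of these clustered calls, and for 319, 0, 288 and 275 of the 331, 558, 289 and 675 calls at isolated sites. The count of clustered sites fell to 154 without replicate 2 and to 106 without replicate 4, and was 280 without replicate 1 and 265 without replicate 3.

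Pairs of sites were most frequent at distances of 500 to 2000 bp. No pair can be closer than 100 bp by construction, and between 100 and 500 bp there were 12.5 pairs per kb of distance. Between 500 and 1000 bp there were 42 pairs per kb, and between 1000 and 2000 bp there were 43. The rate was 24.7 pairs per kb between 2 and 5 kb and 15.8 between 5 and 10 kb, and it was 16.1 between 10 and 20 kb, so the rate did not fall at the limit of the rule. Between 20 and 100 kb it was 12, a rate at which a distance of 10 kb would hold 120 pairs, and 222 were found. Pairs 5 to 10 kb apart were 1.31 times as frequent as those 20 to 100 kb apart.

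Peaks of each list, taken without the step that joins lists, also lay 500 to 2000 bp from each other more often than they lay farther apart. The rate between 500 and 2000 bp was 4.64, 1.55, 6.43 and 2.85 times the rate between 20 and 100 kb in replicates 1 to 4. All 4 ratios were above 1, and the smaller lists of replicates 1 and 3 gave the larger ratios. With bins poor in genes left out, the ratios were 4.21, 1.55, 6.44 and 2.83.

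As a second comparison, every site was moved along its chromosome by 50 to 500 kb in steps of 50 kb, to either side. The share of moved positions with a site at most 10 kb away was between 17.0 and 21.4% over the 10 distances, with a median of 19.7%, against 32.0% of the sites in place. With bins poor in genes left out, the share of sites was 32.3% and the median of moved positions 19.9%. Moved positions were not matched to the sites in gene density, whose part in the difference was not tested. When 3 lists were required, 85 of 446 sites were clustered, 19.1%, against 6.37 to 10.0% of moved positions. Without replicate 2 the share was 23.4% against at most 13.6%, and without replicate 4 it was 20.7% against at most 11.3%.

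**Figure D1:**
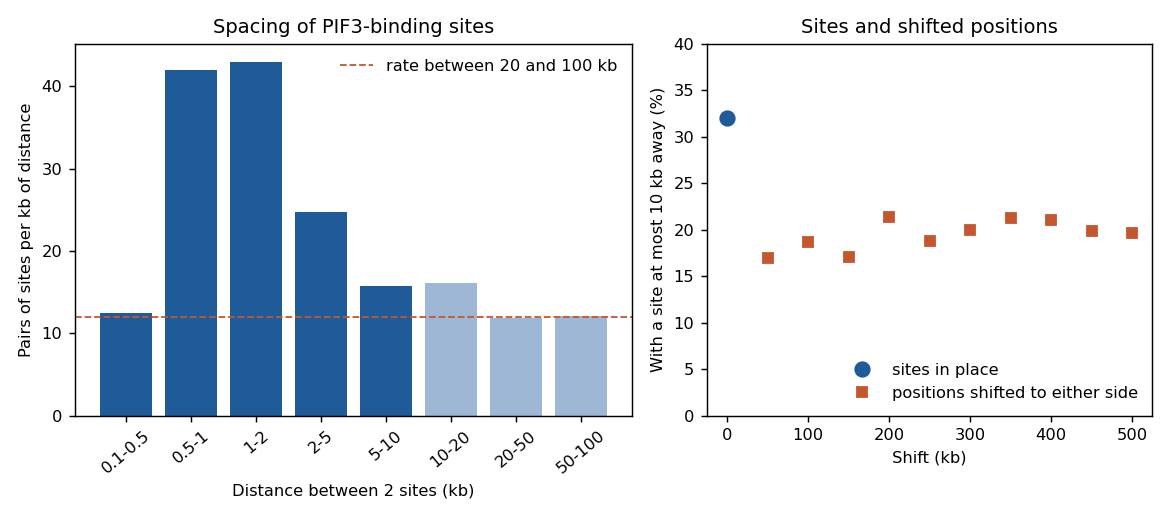
Spacing of PIF3-binding sites. The left panel plots pairs of sites per kb of distance in each distance bin, with bins up to 10 kb in dark blue and the rate between 20 and 100 kb, 12, as a dashed line; the bins at 500 to 1000 bp and 1 to 2 kb stand highest, at 42 and 43. The right panel plots the share of sites with another site at most 10 kb away, 32.0%, and the same share of positions shifted by 50 to 500 kb to either side, 17.0 to 21.4%.

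Gaps between neighbouring clustered sites ranged from 137 to 9961 bp, with a median of 3174 bp over 191 gaps. The gaps just inside the limit were 9814, 9845 and 9961 bp, and those just outside it were 10003, 10093 and 10194 bp. A cluster spanned 3818 bp in the median and 16694 bp at most.

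Whether neighbours were called as separate peaks in one list bears on how many binding regions a cluster holds. Both sites of a pair were called as separate peaks in 1 list for 42 of the 191 pairs, in 2 lists for 103, in 3 lists for 31 and in 4 lists for 9. The remaining 6 pairs were never separate in one list. Among these were all 5 pairs under 300 bp, next to bZIP2, AT3G25700, PIF6, ACS8 and AT5G44440, and in each of these pairs a single peak covered both summits in all 4 lists. At PIF6, which encodes a PIF family member, replicates 2 and 4 placed the summit 484 bp upstream of the TSS and replicates 1 and 3 placed it 643 bp upstream. These 5 pairs can be single regions whose summits differed between lists. With a separate call in a shared list required, 336 sites remained clustered.

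The closest pairs called as separate peaks in at least 2 lists were next to GATA9, 561 bp apart, LOX1, 647 bp apart, AT5G03370, 661 bp apart, AT5G18937, 674 bp apart, and AT1G68670, 712 bp apart. At GATA9, a GATA-type zinc-finger gene, the site nearer the TSS had folds of 5.54, 4.95 and 7.01 in replicates 2, 3 and 4, and the farther one 3.73 and 4.97 in replicates 3 and 4. At LOX1, a lipoxygenase gene, the upstream sites had folds of 5.01 and 5.64 and of 5.26 and 6.70 in replicates 2 and 4. The neighbours were thus within 1.5-fold of each other at both genes in every shared list.

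**Figure D2:**
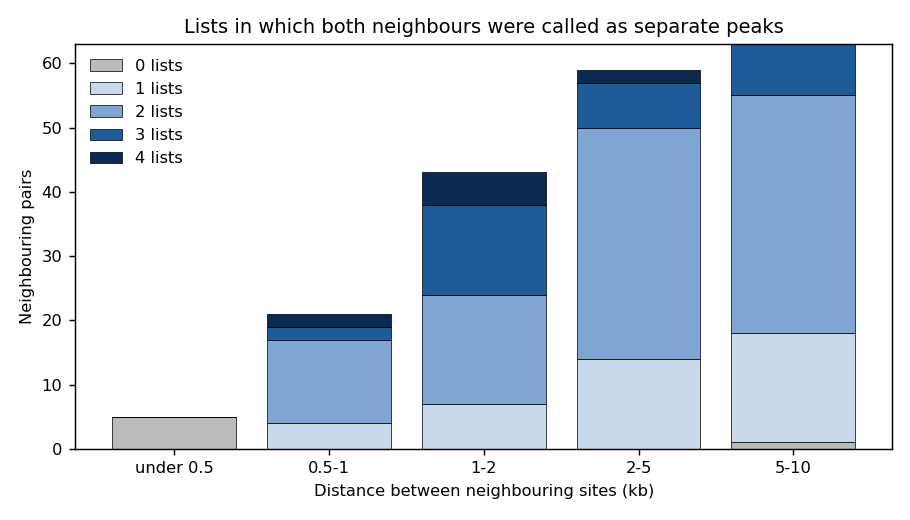
Neighbouring pairs of clustered sites by distance, stacked by the number of lists in which both were called as separate peaks. The bars hold 5, 21, 43, 59 and 63 pairs from the shortest to the longest distance, and the 5 pairs under 500 bp were separate in no list.

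ATHB-2 had 1 of the 2 clusters with the most sites, 5 sites over 5265 bp, between 3055 and 8320 bp upstream of its TSS, with 8 G-boxes and 2 PBE-boxes. The third site, centred at 9443440 on chromosome 4 and 5674 bp from the TSS, had a fold over the local background of 18.2, 18.5, 22.8 and 33.7 in replicates 1 to 4, from 190, 230, 386 and 615 tags. Site 4 had folds of 8.24, 8.95, 6.48 and 11.6, and site 5 had 8.38, 10.8, 4.36 and 11.0. In every list the third site was the highest of the cluster, and the sites on either side of it did not reach its lowest value. The outermost site, 8320 bp from the TSS, had folds of 5.58, 5.97, 3.36 and 9.51. The second site was called in 3 lists, with folds of 4.04, 6.41 and 5.43 in replicates 1, 2 and 4. These last sites lie nearer to the TSS of AT4G16770, on the other side of the shared intergenic DNA.

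HAT2, a second HD-Zip class II gene, had 5 sites in a cluster of 14794 bp, of which 3 have its TSS as the nearest. The site 2953 bp upstream had folds of 6.33, 8.53, 6.23 and 9.88 in replicates 1 to 4, and the site 1465 bp upstream, in a non-coding gene, 6.05, 6.32, 4.11 and 9.92. These neighbours overlapped in fold across the lists. The site 20 bp inside the 5′ UTR was weaker, with 3.46, 2.72 and 4.19 in replicates 1, 3 and 4, and it held neither motif. The farther sites of this cluster lie nearest to AT5G47380 and AT5G47420, with folds between 4.08 and 6.28.

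HAT1 had 3 sites over 13520 bp. The site 1320 bp upstream had folds of 6.99, 14.1, 5.36 and 14.3 in replicates 1 to 4. Replicates 2 and 4 were at least 2 times as high there as replicates 1 and 3. The site 7827 bp upstream was called in replicates 2, 3 and 4, at 5.44, 4.36 and 14.0, and the one at the TSS of AT4G17420, 14840 bp upstream of HAT1, in all 4 lists at 7.38, 11.5, 7.25 and 14.8.

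HAT3 and ATHB4, further HD-Zip class II genes of shade responses, had clusters of 3 and 2 sites. The HAT3 sites 3565 and 5361 bp upstream were called in all 4 lists, with folds of 7.23, 7.63, 4.47 and 8.55 and of 6.88, 5.04, 5.11 and 7.98, and together they held 6 G-boxes. Both lie nearer to the TSS of SHOT1, at 2822 and 1026 bp from it. The site 68 bp inside the HAT3 transcript was called in replicates 3 and 4, at 3.80 and 6.14, and held no motif. ATHB4 had a site 1845 bp upstream with 2 G-boxes and folds of 14.9, 16.4, 10.9 and 25.1 in replicates 1 to 4. Its neighbour, 1912 bp farther out, nearest to AT2G44920 and with 3 G-boxes, had 3.23, 4.31 and 4.56 in replicates 1, 2 and 4. These folds were below the lowest value of the first site. HAT22 had a site 824 bp upstream, in a non-coding gene or pseudogene, at 5.65, 4.88 and 11.2 in replicates 2, 3 and 4. Another lay past the end of the gene, 2688 bp from the TSS, at 7.42 and 17.1 in replicates 3 and 4.

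Counted by list, 6 of 10 HD-Zip class II genes had the nearest TSS of a clustered site, against 264 of 27444 protein-coding genes, 0.962%. The other 4 members of the list, HAT9, HAT14, HB17 and HB18, were nearest to no site. Over the 14 gene lists examined, 26 of 250 genes, 10.4%, were nearest to a clustered site. Of these 26, PIF6 and ACS8 count only through pairs under 300 bp apart that can be single regions. The lists were chosen with earlier results of these data known, and genes of one list such as the HD-Zip class II family share ancestry, so these counts are a description.

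Sites of related HD-Zip class II genes also shared stretches of sequence, a comparison chosen after the sequences had been seen. The longest exact run shared by 2 sites, each taken with 100 bp to either side, was sought among all pairs of sites, on either strand, and runs of at least 16 bases were kept unless they were simple repeats. Of 62 pairs kept, 9 were between 2 clustered sites, of 57970 possible pairs, 21 between a clustered and an isolated site, of 246543, and 32 between isolated sites, of 261003. Between clusters of HD-Zip class II genes were 4 of the 9. Apart from the ATHB4 and HAT3 pair, these repeat the same stretch, found at ATHB-2, HAT1 and HAT2. The longest of all 62 runs, 34 bases, joined the site past the end of HAT22 with an isolated site past the end of HAT9, 3389 bp from its TSS. Runs that carry these pairs are shown here, with motifs in capitals and on the forward strand of the member named first.
HAT9 and HAT22 sites (chr2:9702779-9702812): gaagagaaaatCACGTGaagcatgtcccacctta
ATHB4 and HAT3 sites (chr2:18521617-18521638): cccagtgaccacactcgtgcgg
ATHB-2 and HAT1 sites (chr4:9442039-9442058): caCACGTGtgcttcgctgtc
ATHB-2 and HAT2 sites (chr4:9442038-9442056): acaCACGTGtgcttcgctg

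The ATHB-2 site in this comparison is the second one, 7032 bp upstream, and the HAT1 site is the one 7827 bp upstream; their nearest TSSs are those of AT4G16770 and AT4G17440. HAT1 and HAT2 shared 18 of these bases with each other. In all 3 genes the run points the same way relative to the gene, since ATHB-2 and HAT1 lie on the forward strand and HAT2 with its copy on the reverse strand. The run of 22 bases at ATHB4 and HAT3 holds neither motif, and at HAT3 it lies in the site 3565 bp upstream, which an annotated non-coding gene covers. Among pairs of neighbours within a cluster, 1 of 187 pairs more than 200 bp apart shared a run of 16 bases, between ABCG30 and ABCG42, 7625 bp apart. Shared runs were not limited to sites of HD-Zip class II genes or to clustered sites. Isolated sites nearest to BBX28 and BBX29 shared 24 bases, and those nearest to PIP5K1 and PIP5K2 shared 19. A clustered site nearest to RAV1 and an isolated site nearest to EDF3 shared 19.

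**Figure D3:**
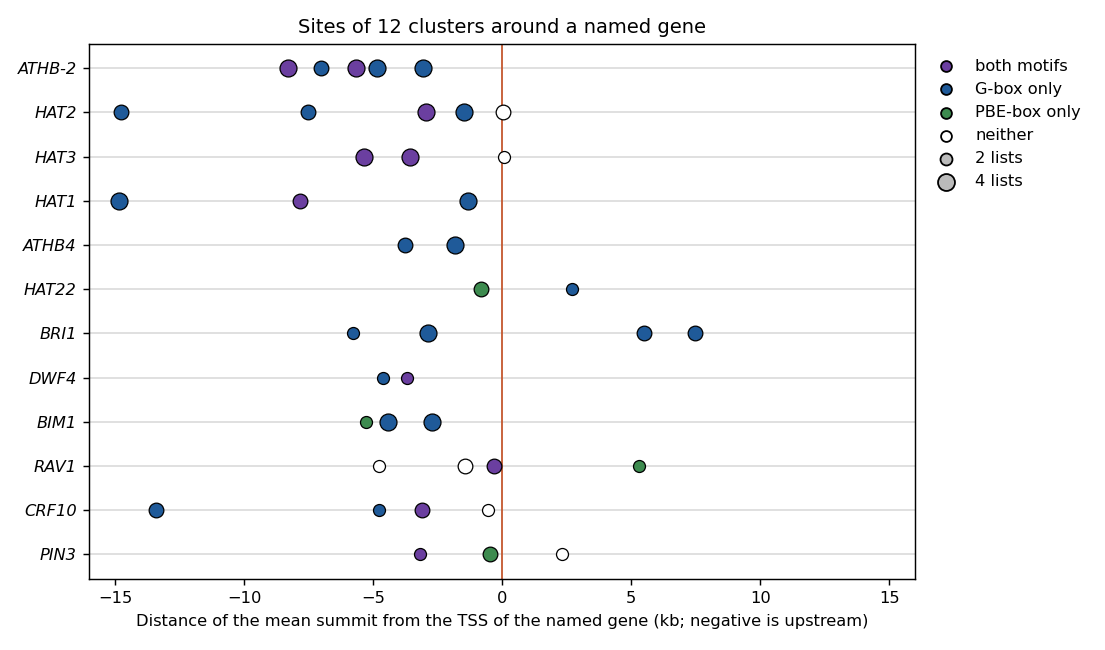
Sites of 12 clusters by distance from the TSS of a named gene, in kb, with upstream to the left. Colour gives the motifs at most 100 bp from the mean summit and the size of a point gives the number of lists; the 5 sites of ATHB-2 all lie between 3055 and 8320 bp upstream, and those of BRI1 lie on both sides of the gene.

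The brassinosteroid list had 5 of 16 genes nearest to a clustered site: the receptor kinase gene BRI1, the synthesis gene DWF4, the bHLH genes BEE1 and BIM1 and BAS1, which inactivates brassinosteroids. BRI1 lay in a cluster of 4 sites over 13269 bp, each with 1 G-box. The site 2887 bp upstream of BRI1 had folds of 5.96, 5.01, 5.64 and 5.99 in replicates 1 to 4, a narrow range. Farther upstream, nearest to NST-K1, a site had 2.81 and 3.52 in replicates 3 and 4. On the other side of BRI1, the sites nearest to PLS, which encodes the POLARIS peptide, had 4.98, 3.10 and 4.18 in replicates 2, 3 and 4 and 4.56, 7.03 and 9.79 in replicates 1, 2 and 4.

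DWF4 had a pair 901 bp apart, 3703 and 4604 bp upstream, with 3 G-boxes and 2 PBE-boxes in all. Both were called in replicates 2 and 4 only, at 5.33 and 8.80 for the nearer one and 4.58 and 12.3 for the farther one. The order of the neighbours thus differed between the replicates. At BIM1 the site 2718 bp upstream held 3 G-boxes, with folds of 9.25, 12.3, 8.45 and 17.2 in replicates 1 to 4, and its neighbour 1716 bp farther, nearest to AT5G08139, had 9.23, 12.2, 8.42 and 14.7. These neighbours were within 1.5-fold of each other in all 4 lists. The third site of the cluster, 863 bp farther still, was lower, at 2.99 and 4.43 in replicates 3 and 4. BEE1 had a site in its coding sequence, 2121 bp from the TSS, at 7.78, 5.00, 6.22 and 10.6, and a site 172 bp upstream at 4.35 and 8.06 in replicates 2 and 4. At BAS1 a site 56 bp upstream held neither motif and had 5.12 and 7.55 in replicates 2 and 4. A second site lay in the coding sequence of BAS1, though nearest to the TSS of AT2G26720. It held 2 G-boxes and had 6.28 and 4.26 in replicates 1 and 4.

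Of the listed auxin genes, IAA2, IAA7 and IAA19 had clustered sites, 3 of 28 Aux/IAA repressor genes. So did PIN3 and WAG2, 2 of 20 genes of auxin synthesis and transport. IAA2 had 2 sites 920 bp apart, both in all 4 lists, 1 in its coding sequence at 8.77, 9.04, 7.29 and 13.3 in replicates 1 to 4, and 1 located 761 bp upstream at 6.85, 8.53, 4.95 and 13.5. Their ranges overlapped. IAA19 had a site 161 bp upstream at 4.40, 3.79, 4.65 and 9.40, of which replicate 4 stood apart. IAA7 had a site 27 bp inside its 5′ UTR at 4.59 and 5.83 in replicates 3 and 4. PIN3, an auxin efflux carrier gene, had 3 sites over 5492 bp, at 3185 and 468 bp upstream and in an intron, with folds from 3.60 to 6.48. WAG2, which encodes a kinase that acts on PIN carriers, had a site 1129 bp upstream at 6.34, 8.53, 5.25 and 11.1.

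Of the listed gibberellin genes, the receptor gene GID1B and the DELLA repressor gene RGA1 had clustered sites, 2 of 19. At GID1B, sites 904 and 136 bp upstream held 4 PBE-boxes and no G-box, with folds of 4.28, 5.27 and 4.54 in replicates 1, 2 and 4 and of 5.58 and 6.58 in replicates 2 and 4. RGA1 had a site 1558 bp upstream with 3 G-boxes, in a non-coding gene or pseudogene. Its folds were 4.82, 5.33, 4.68 and 12.2 in replicates 1 to 4. Replicate 4 was the high one here too, and it had the highest median fold of clustered sites, 6.42.

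Of light signaling genes, 2 of 23 had the nearest TSS, PIF6 and PAR1, an HLH gene whose protein inhibits PIFs, and of 19 B-box genes 1 did, BBX21, a promoter of photomorphogenesis. The PAR1 sites, 754 and 2653 bp upstream, held 4 PBE-boxes and no G-box, at 4.17 and 5.44 in replicates 2 and 4 and at 5.10, 4.84 and 5.69 in replicates 1, 2 and 4. The nearer PAR1 site lies in a non-coding gene or pseudogene and the farther one in the 3′ UTR of another gene. BBX21 had a site 2179 bp upstream at 6.21, 5.31 and 7.56 in replicates 1, 2 and 4. The PIF6 sites were higher, at 10.07 and 18.62 in replicates 2 and 4 and at 10.2 and 7.23 in replicates 1 and 3. They lie 159 bp apart under a single peak in all 4 lists, so they can be a single region.

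Of the listed abscisic acid genes, AFP1 and NCED3 had clustered sites, 2 of 19. NCED3 encodes the rate-limiting enzyme of abscisic acid synthesis. NCED3 had a strong site 5027 bp upstream, at 11.4, 8.85, 8.16 and 15.8 in replicates 1 to 4, and a site in its 5′ UTR at 3.68, 4.26 and 3.85 in replicates 1, 2 and 4. The far site was the higher in each of the 3 shared lists. The remaining lists gave ACS8, 1 of 15 ethylene genes, PRR9, 1 of 16 clock genes, and XTH33, 1 of 17 cell wall genes. No gene of 18 for cytokinin, 22 for photosynthesis and chlorophyll or 9 reference genes had the nearest TSS of a clustered site. Over all protein-coding genes the share was 0.962%, so an absence from lists of this size says little. Each of these lists had 2 genes nearest to isolated sites only: CKX5 and ARR8, PSY and PSBQ-2, and ACT2 and ACT7. The lists do not hold every gene of a process. CRF10 and RR20, described next, and PSB28 are in no list but had the nearest TSS of a clustered site.

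Outside these lists, AT5G02580 lay in a cluster of 4 sites over 15162 bp. Its site 407 bp upstream, with 2 G-boxes, had folds of 16.5, 23.2, 14.9 and 23.0 in replicates 1 to 4, and the site 1535 bp downstream of the TSS, with 3 G-boxes, had 8.58, 5.67, 4.73 and 8.27. The upstream site was above the other in all 4 lists, with no overlap. BRG3, a RING finger gene, had a site 847 bp upstream with 3 G-boxes at 13.2, 12.4, 7.93 and 17.7, and a site 4040 bp from the TSS on the other side of the gene with 1 G-box at 3.68, 4.30, 4.23 and 7.02. RAV1, an AP2 and B3 domain transcription factor gene, had 3 sites upstream, of which the one at 1433 bp had 6.50, 5.57 and 19.8 in replicates 2, 3 and 4 and held neither motif. CRF10, of the cytokinin response factor family, had 3 sites between 551 and 4788 bp upstream with folds from 4.20 to 7.57. The clusters of RR20, a response regulator gene, with AT3G62630 and AT3G62650, and of AT3G44610 had folds from 3.91 to 8.68 and from 3.30 to 8.69.

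**Figure D4:**
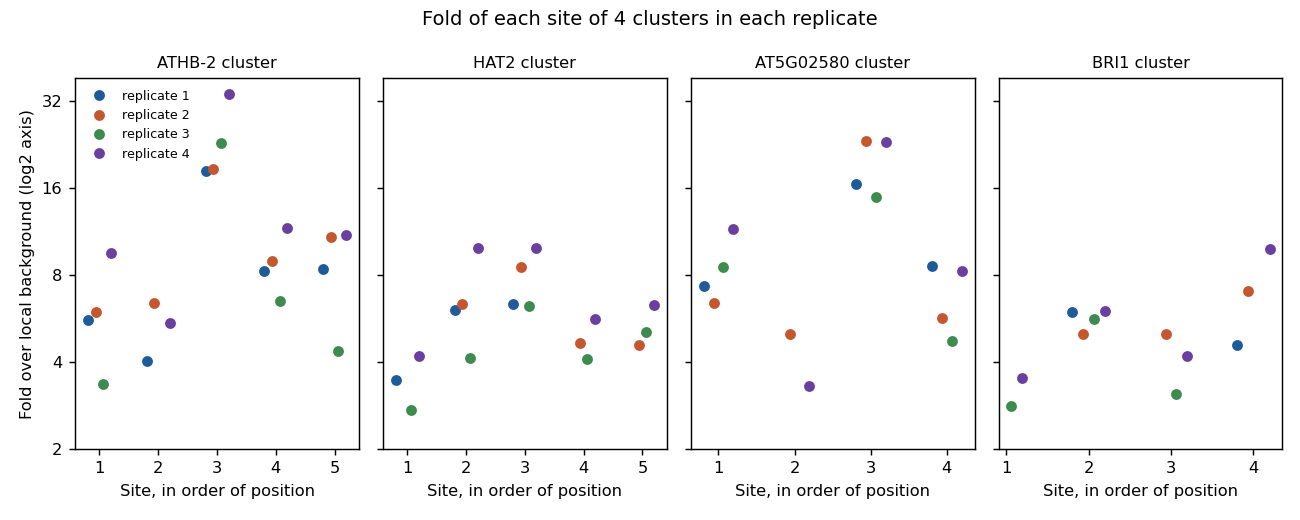
Fold over the local background of each site of 4 clusters, in order of position, on a log2 axis, with 1 point for each replicate that called the site. The third site of the ATHB-2 cluster lies between 18.2 and 33.7 and the third site of the AT5G02580 cluster between 14.9 and 23.2, above the other sites of their clusters in every replicate.

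Over the 116 clusters of 2 sites with a shared list, the ratio of the stronger to the weaker neighbour, by fold in shared lists, had a median of 1.30 and a maximum of 4.59. No such ratio was computed for sites that are not neighbours. A G-box was present in 59 of the 116 stronger sites and in 59 of the weaker ones. Median folds of clustered sites were 5.63, 5.16, 4.44 and 6.42 in replicates 1 to 4, beside 5.32, 4.87, 4.59 and 6.03 of isolated sites, higher in 3 of the 4 lists.

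Motifs were tested against isolated sites, since sequence did not enter the rule. A G-box lay in 185 of 341 clustered sites, 54.3% (95% exact interval 48.8 to 59.6%), and in 346 of 723 isolated sites, 47.9% (44.2 to 51.6%). The difference was 6.40 percentage points and did not pass Fisher's exact test, two-sided, with adjusted p = 0.14 over 5 shares. A PBE-box lay in 38.1% and 34.0% (adjusted p = 0.27, Fisher's exact test), and either motif in 74.8% and 71.0% (adjusted p = 0.27, Fisher's exact test). The G-box share of clustered sites was above that of isolated sites in each of the 4 lists, at 65.4, 58.0, 57.4 and 54.5% against 58.9, 50.9, 49.1 and 48.1%, but the lists share sites. Both motifs together were present in 60 clustered sites, 17.6%, and in 79 isolated sites, 10.9%, a difference that was not tested. Windows of the same length 500, 1000 and 2000 bp to either side of clustered sites held a G-box in 3.81, 4.99 and 5.43%, and those of isolated sites in 2.28, 2.97 and 2.35%; windows beside a clustered site can reach its neighbour.

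No tie between neighbours in the G-box was detected. In the 118 clusters of 2 sites, 29 had it in both, 31 in the first only, 31 in the second only and 27 in neither, with an odds ratio of 0.815 (p = 0.59, Fisher's exact test, two-sided). Over all 150 clusters, 35 had a G-box in every site and 29 in none, and 77 had at least 1 of the motifs in every site and 7 in none. Of all sequences of 6 bases, 0 differed between clustered and isolated sites at an adjusted p under 0.05 (0% of those tested, Fisher's exact test), and 84, or 4.04% of those tested, did at an unadjusted p under 0.05, of which 44 were more frequent in clustered sites.

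Position relative to genes did not enter the rule either. Of clustered sites, 114 of 341, 33.4% (28.4 to 38.7%), were within 1 kb upstream of a protein-coding TSS, against 308 of 723 isolated sites, 42.6% (39.0 to 46.3%). This difference of -9.17 percentage points passed Fisher's exact test (odds ratio 0.677, adjusted p = 0.024), but the call was lost without replicate 1 (-6.97, adjusted p = 0.12), without replicate 2 (-11.1, adjusted p = 0.069), without replicate 4 (-6.58, adjusted p = 0.44) and with 1 site per cluster (-7.93, adjusted p = 0.42), all by Fisher's exact test. The share of clustered sites was the lower in each list, at 31.4, 36.8, 31.6 and 32.3% against 45.0, 43.2, 38.1 and 42.5%. The median distance to the nearest protein-coding TSS was 977 bp for clustered and 756 bp for isolated sites, and the median length of the DNA between protein-coding genes that held them was 4613 bp (n = 270) and 3171 bp (n = 543). These medians were not tested, and the part of the length between genes in the clustering was not tested. Intergenic sites made up 72.1% of clustered and 71.2% of isolated sites (adjusted p = 0.77, Fisher's exact test), and 4.99 and 3.32% lay in coding sequence.

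**Figure D5:**
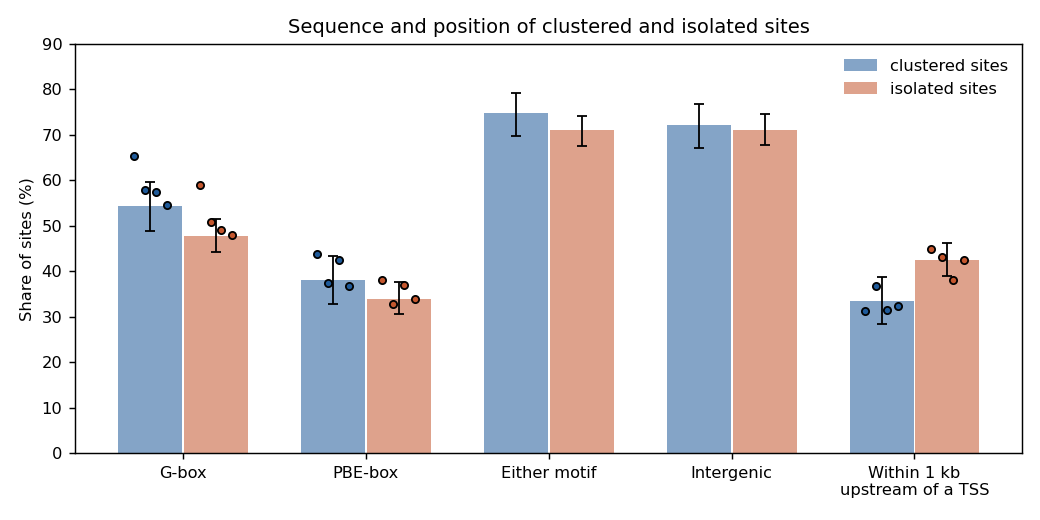
Shares of clustered and isolated sites with a motif or position, in percent, as bars with 95% exact intervals. Points give the share in the sites that each of replicates 1 to 4 called, from left to right; the share within 1 kb upstream of a TSS, 33.4% against 42.6%, was the one that passed the test.

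Between neighbours, 68 of the 191 pairs had no protein-coding gene between them, with a median gap of 1678.5 bp, and 74 had a whole gene between. The same gene had the nearest TSS of both neighbours in 77 pairs. Over genes, 63 were nearest to 2 clustered sites and 7 to 3: RAV1, CRF10, PIN3, ATHB-2, AT5G18937, HAT2 and FP3. By chromosome, 31.5, 30.8, 40.6, 33.1 and 24.6% of sites were clustered on chromosomes 1 to 5, highest on chromosome 3 with 89 of 219 and lowest on chromosome 5 with 56 of 228. Peaks called in 1 list only lay within 10 kb of 75.4% of clustered and 60.9% of isolated sites.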

How the data were processed

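The 8 ChIP-seq libraries gave 4 peak lists, 1 per replicate. The authors processed reads with CASAVA 1.7.0, aligned 36-nt reads to TAIR9 with Bowtie 0.12.7, allowing 2 mismatches and keeping reads unique in the nuclear genome, and called peaks with MACS 1.4.0rc2 at a p of 1e-05 in P3M against WT of the same number. The deposited count of each peak is its number of tags. The fold is the enrichment over local background as deposited by the authors, the score is -10 times the logarithm to base 10 of the p-value as deposited, and the false discovery rate is in percent as deposited. These values were used unscaled. The total reads per library were not analysed here, so the depth behind a fold is known only from its tags, and intervals cover counting error only.

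Sites were made as stated at the opening of the report, and each takes in 100 bp to either side of the mean summit. Sequences and genes came from RefSeq TAIR10.1, whose chromosome sequence was checked against the files: all 1034 deposited distances of a peak to a G-box up to 1000 bp were found within 3 bp. The TAIR9 annotation was not used here. Shares were compared with two-sided Fisher's exact tests, adjusted by the Benjamini-Hochberg method over 5 shares or over all sequences of 6 bases. Neighbouring sites are not independent, so 1 site per cluster was an alternative. Others changed the joining distance, the lists required, the p limit, the cluster distance, the annotation or the TSS limit, left out gene-poor bins of 500 kb or each replicate, or required a separate call in a shared list. Alternatives for the sequences of 6 bases and for the G-box in neighbours were chosen after seeing the data, as was the search for shared runs, which left out runs in which fewer than 75% of the words of 3 bases were distinct. Calculations used Python 3.11.15, numpy 2.4.6, scipy 1.17.1 and matplotlib 3.10.9, and the procedure was tested on simulated data.

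Members and gene lists were chosen with earlier results of these data known. Clusters are named if they hold at least 4 sites, if they hold at least 2 sites in all 4 lists and rank among the first by the p-value, if a gene of the lists has the nearest TSS, or if they are 1 of the 5 closest pairs called as separate peaks in at least 2 lists. bZIP2, AT3G25700, AT5G44440, ABCG30, ABCG42, FP3, HAT9, HAT14, HB17 and HB18 are outside this rule and were named after their values were seen. The same holds for BBX28, BBX29, PIP5K1, PIP5K2, EDF3, CKX5, ARR8, PSY, PSBQ-2, PSB28, ACT2 and ACT7. Of 257 symbols in 14 lists, 251 matched 1 annotated gene.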

Additional observations from a re-analysis of the deposited data

Results flagged for a closer look

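In 16 summary measures of the lists and 33 sites called in all 4 lists, a value of 1 replicate lay far from the other 3 in these cases, of which chance gives about 1 in 20 groups. The share of clustered sites within 1 kb upstream of a protein-coding TSS was 36.8% in replicate 2 and 31.4 to 32.3% in the others. The number of isolated calls with a false discovery rate of 100% was 0 in replicate 2 and 275 to 319 in the others. The fold of the RGA1 site centred at 259126 on chromosome 2 was 12.2 in replicate 4 and 4.68 to 5.33 in the others. The fold of the IAA19 site centred at 5263840 on chromosome 3 was 9.40 in replicate 4 and 3.79 to 4.65 in the others. The median fold of all clustered sites was also highest in replicate 4, at 6.42.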

How the results depend on the processing

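The count of clustered sites depended on the lists and limits used: it was 85 with 3 lists required and 81 with peaks at a p of 1e-10 or lower, and between 106 and 280 with 1 replicate left out, 106 without replicate 4 and 154 without replicate 2. In all 12 settings the share of clustered sites, 19.1 to 46.1%, was above the highest share of shifted positions in that setting. The share within 1 kb upstream of a TSS stayed lower in clustered sites in all 14 alternatives, by -12.6 to -6.56 percentage points, and its call was lost with 3 lists (-11.5), with a p of 1e-10 (-12.2), with clusters within 20 kb (-6.56), with 1 site per cluster (-7.93) and without replicates 1, 2 or 4 (-11.1 to -6.58 over the 4 fits that each left out a replicate). The call was kept in the other 7 alternatives, among them clusters within 5 kb (-11.6) and a TSS limit of 3 kb (-12.6). The intergenic share turned to the other sign with 3 lists (-6.21), with a p of 1e-10 (-7.47) and without replicates 1, 3 or 4 (-2.83 to 0.703 over those 4 fits). With 1 site per cluster the PBE-box difference was -1.36 and that of either motif -1.62. The odds ratio for a G-box in both neighbours was 1.09 without replicate 3 (0.5 to 1.09 with 1 replicate left out). The cause was not tested. Differences in G-box share kept their sign in 14 alternatives, 2.83 to 11.3 percentage points, with adjusted p from 0.078 to 1 by Fisher's exact test. No paired analysis was possible because each peak list already sets P3M against WT of the same replicate number and no WT values are in the lists. The number of lists limits how finely folds of neighbours can be compared, and no pair closer than 561 bp was called as separate peaks.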
